A study of Mus musculus with 4 samples.

Results

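The heat shock proteins and DNAJ chaperones of mouse liver are described here in bulk mRNA-seq after a liver injury diet. Members were the genes of the deposited table whose symbol begins with Hspa, Hspb, Hspd, Hspe, Hsph, Hsp90, Dnaja, Dnajb or Dnajc, without Hspa5 and Dnajb9, and the table held 64 of them among 13903 genes. The symbols sort into 10 HSP70 proteins, 3 HSP110 proteins, 3 HSP90 proteins, 6 small heat shock (HSPB) proteins, the 2 mitochondrial chaperonins, 4 DNAJA, 9 DNAJB and 25 DNAJC proteins, and 2 binding proteins named after a heat shock protein, Hspbp1 and Hspbap1. All mice were OGT-floxed on a C57BL/6J background and were given the CDE diet (choline deficient and ethionine supplemented). One group had received the virus AAV8-TBG-CRE (labelled OGT-KO) and the other AAV8-TBG-eGFP (labelled control), with the TBG promoter driving expression in hepatocytes, so other liver cells are not its target. Livers were taken with no recovery or a 7 day recovery after the diet, and the age of the mice is not given in the sources used here. Each of the 4 conditions was 1 library that pooled equal RNA from 3 mice. There is thus no replicate check of any value and no test between conditions, and each difference is one between 2 libraries.

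Chaperones of the HSP70 family bind unfolded stretches of protein and release them as ATP is hydrolysed and exchanged. J-domain (DNAJ) proteins bring clients and trigger the hydrolysis, HSP110 and BAG proteins exchange the nucleotide, and HSP90 takes over later folding steps of many kinases and steroid receptors. Small heat shock proteins hold unfolded proteins without ATP. Heat shock factor HSF1 raises part of these genes under proteotoxic stress by binding inverted repeats of the pentamer nGAAn in their promoters, while others are made at steady levels or serve mitochondria or the endoplasmic reticulum. O-GlcNAc transferase (OGT) adds a single sugar to nuclear and cytosolic proteins, and several heat shock proteins are known to carry it.

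The libraries held 19972699 to 22866431 reads on the listed genes, and a count of 3 reads, the floor used here, corresponded to 0.131 to 0.150 CPM (reads per 1000000). Ogt, the targeted gene, read 55.3 CPM under the OGT-KO label against 64.7 under the control label before recovery, and 77.7 against 55.7 later. At the deposited scaling its whole-gene level thus went against the label at the later time. The median of all genes averaging 10 CPM or more was also higher in OGT-KO at 7 days, by 0.48 in log2. Median-ratio scaling shifts the genotype differences at 7 days by a median of -0.66, and Ogt is then lower under the OGT-KO label. Which exons the deletion removes is not given in the sources used here. OGT-KO and control therefore name libraries by their labels below, and every direction between genotypes is one between labels. Hepatocyte markers led the tissue check, with Alb at 41362 to 54435 CPM. Of the 64 members, 47 averaged 10 CPM or more across the libraries and were compared, and 17 did not (Dnajb5, Dnajb13, Dnajc4, Dnajc12, Dnajc17, Dnajc24, Dnajc27, Dnajc28, Hspa1a, Hspa1l, Hspa2, Hspa12a, Hspa12b, Hspb2, Hspb7, Hspb11 and Hspbap1). Differences are of log2(CPM + 1), which understates the change of low genes, and a gene was called at a 2-fold difference. Intervals in brackets are 95% exact intervals that cover counting error only.

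Set per kilobase of exon, the levels of the members ran from 0.292 CPM (Hspb7, a muscle form) upward. Hsp90ab1, the constitutive cytosolic HSP90, led with a mean of 477 CPM per kilobase, followed by Hspa8, the constitutive cytosolic HSP70, at 372 and Hsp90b1, the HSP90 of the endoplasmic reticulum, at 262. Hspa9, the mitochondrial HSP70, stood at 169, and the chaperonin genes Hspd1 (HSP60) and Hspe1 (its lid protein) stood at 159 and 125. Hspb8, a small heat shock protein that works with Bag3, was the highest of its family at 105 CPM per kilobase. The stress-inducible Hsp90aa1 reached 74.4, and the strictly inducible HSP70 genes Hspa1b and Hspa1a had only 6.16 and 0.916. J-domain genes were lower than the HSP70 and HSP90 leaders, with Dnajc22 at 59.3, Dnaja2 at 47.8 and Dnajb11 at 39.6 as the highest of the DNAJC, DNAJA and DNAJB families. Exon lengths came from another build than the one named by the submitters, so these levels order the genes only roughly.

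**Figure D1:**
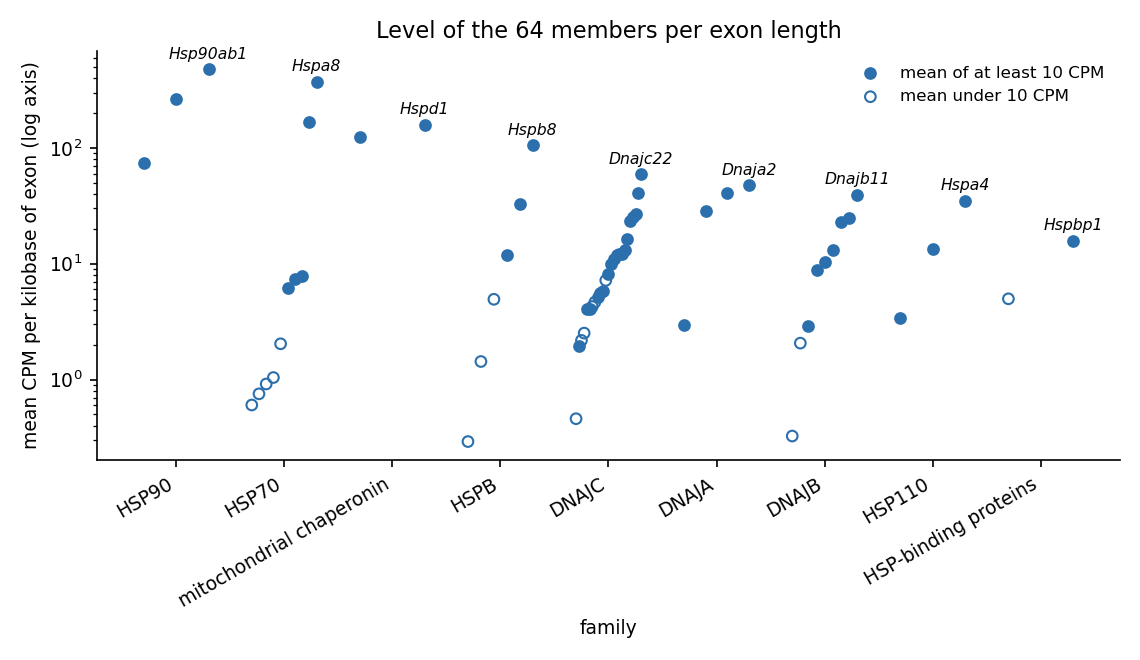
Mean CPM over the 4 libraries per kilobase of exon (log axis) for each of the 64 members, sorted into families and ordered by the highest member. Filled points have a mean of at least 10 CPM and open points a lower one. Hsp90ab1 at 477 and Hspa8 at 372 CPM per kilobase stand highest, and the HSP70 family also holds open points near 1.

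The heat-inducible list has 12 members: Hspa1a, Hspa1b, Hspa8, Hsph1, Hspa4l, Hsp90aa1, Hsp90ab1, Hspb1, Hspd1, Hspe1, Dnaja1 and Dnajb1. It was set with earlier results of these data known. The list holds Hspa8 and Hsp90ab1, both called constitutive above, so its name does not mean that each member is made only under stress. Heat shock elements were looked for in their promoters, taken from RefSeq on GRCm38.p6 from 250 bases before the annotated start to 50 after it, with genes matched by symbol. The letters searched were GAANNTTC and TTCNNGAA, each its own reverse complement and so found on both strands at once, and a run of 3 units was counted as GAANNTTCNNGAA or TTCNNGAANNTTC, in which the pairs overlap. Promoters were matched for 51 of the 64 members. Of the heat-inducible list, Hsp90aa1, Hsp90ab1 and Hspa8 had no matched promoter. Of 9 matched heat-inducible genes, 7 (77.8%) had a pair in at least 1 promoter and 3 had the run, against 7 of the 42 other matched members (16.7%) with a pair and 1 with the run. Over all 27025 genes with a promoter the shares were 17.0% and 0.662%. Hspd1 and Hspe1 lie head to head and share the same letters, so they are 1 region read from both strands. The near-identical neighbours Hspa1a and Hspa1b are both among the 7 as well. Promoters of 5 genes are shown because these are among the members described next, with the elements in capitals; each runs from 250 bases before the start to 30 after it.
Hspa1b, chr17:34959209-34959488, minus strand: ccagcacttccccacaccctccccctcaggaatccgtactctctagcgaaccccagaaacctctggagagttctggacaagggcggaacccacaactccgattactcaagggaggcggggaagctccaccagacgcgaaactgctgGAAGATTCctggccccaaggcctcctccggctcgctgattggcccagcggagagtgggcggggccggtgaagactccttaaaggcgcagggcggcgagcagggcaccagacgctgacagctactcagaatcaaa
Hsph1, chr5:149636286-149636565, minus strand: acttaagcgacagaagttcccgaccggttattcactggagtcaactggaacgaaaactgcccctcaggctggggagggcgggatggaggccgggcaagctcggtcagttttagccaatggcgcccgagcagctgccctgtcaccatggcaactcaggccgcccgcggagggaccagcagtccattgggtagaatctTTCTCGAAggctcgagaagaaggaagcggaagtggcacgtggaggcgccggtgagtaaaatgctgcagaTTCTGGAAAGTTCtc
Hspb1, chr5:135887669-135887948, plus strand: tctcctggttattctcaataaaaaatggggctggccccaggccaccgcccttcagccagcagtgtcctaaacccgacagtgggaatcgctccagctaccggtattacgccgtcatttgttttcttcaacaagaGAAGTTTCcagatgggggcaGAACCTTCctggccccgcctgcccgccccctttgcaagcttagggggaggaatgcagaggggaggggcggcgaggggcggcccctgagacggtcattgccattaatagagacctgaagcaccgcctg
Hspe1, chr1:55087898-55088177, plus strand: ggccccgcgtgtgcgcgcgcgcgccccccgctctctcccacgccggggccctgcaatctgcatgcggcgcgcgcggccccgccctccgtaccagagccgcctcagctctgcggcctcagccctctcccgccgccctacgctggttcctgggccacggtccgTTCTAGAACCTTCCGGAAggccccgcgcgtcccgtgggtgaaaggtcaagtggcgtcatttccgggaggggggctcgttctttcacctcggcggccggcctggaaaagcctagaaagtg
Dnajb1, chr8:83607925-83608204, plus strand: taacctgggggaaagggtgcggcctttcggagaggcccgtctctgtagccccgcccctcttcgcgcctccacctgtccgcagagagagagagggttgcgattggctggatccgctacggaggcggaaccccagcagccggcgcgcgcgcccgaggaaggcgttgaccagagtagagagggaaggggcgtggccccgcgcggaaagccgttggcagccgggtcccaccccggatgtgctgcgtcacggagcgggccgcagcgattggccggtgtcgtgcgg
The pair of Hspa1b began 104 bases before the start, at the same distance as that of Hspa1a. Hsph1 held 1 pair before its start and a run of 3 units just after it, Hspb1 held 2 pairs, and Hspe1 held 3 overlapping pairs that make 2 overlapping runs. Neither Dnajb1 promoter of the table held these letters, nor did that of Hspa4l. A match is a description of the letters and shows no binding.

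After 7 days of recovery, the heat-inducible members were lower in the library labelled control, among those compared most of all Hspa1b, the cytosolic HSP70 made almost only under stress, and Hsph1, an inducible HSP110 exchange factor. Dnajb1, the inducible partner of HSP70, Hspb1 (HSP25) and Hsp90aa1 were lower by at least 2-fold as well. In the libraries labelled OGT-KO the same genes differed less between the times. In bulk tissue, fewer cells of a type and less RNA per cell cannot be told apart.

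In the libraries labelled control, Hspa1b stood at 48.2 CPM (45.3 to 51.3) before recovery and at 4.66 (3.76 to 5.70) after it, and at 12.2 (10.8 to 13.7) and 4.03 (3.25 to 4.95) in those labelled OGT-KO. The library labelled control with no recovery is far above the other 3, and the intervals of the 7 day libraries overlap. Its recovery difference was -3.12 in control, 10.4-fold lower (8.37 to 12.9), and -1.39 in OGT-KO, 3.03-fold lower (2.38 to 3.88). Hspa1a, its near-identical neighbour, was under the filter, at 5.17 and 0.651 CPM in control (-1.90) and 4.02 and 1.02 in OGT-KO (-1.31). It shares 60.3% of its 50-base stretches with other genes and Hspa1b shares 62.3%, so reads may be split between the pair. The sum of both was 53.4, 5.31, 16.2 and 5.05 CPM in the same order of libraries, with the same library highest.

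Hsph1 was at 128 CPM (124 to 133) in control with no recovery and 41.2 (38.4 to 44.1) after 7 days, and at 35.7 (33.3 to 38.3) and 22.0 (20.1 to 24.0) in OGT-KO. As for Hspa1b, the library labelled control with no recovery was the highest, here 3.11-fold above the 7 day library of the same label (2.88 to 3.37). The OGT-KO pair differed by 1.63-fold (1.45 to 1.82). Dnajb1 had 45.0 CPM (42.2 to 47.9) and 14.7 (13.0 to 16.4) in control, 3.07-fold lower at 7 days (2.69 to 3.51), and 31.0 (28.7 to 33.3) and 22.4 (20.5 to 24.5) in OGT-KO, 1.38-fold lower (1.23 to 1.55). Its order of libraries thus turned with recovery, control being above OGT-KO at first and below it later, although under median-ratio scaling the later difference was -0.07 and the order did not turn.

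Hsp90aa1 and Hspb1 had another order, with the libraries labelled OGT-KO above those labelled control at each time, except that under median-ratio scaling Hsp90aa1 was at -0.12 with no recovery. Hsp90aa1 was at 238 and 117 CPM in control and at 359.8 and 291 in OGT-KO, 2.02-fold lower after 7 days in control (1.93 to 2.13) and 1.24-fold lower in OGT-KO (1.20 to 1.28). For Hspb1 the values were 30.8 and 12.8 CPM in control and 55.2 and 36.3 in OGT-KO, 2.41-fold (2.08 to 2.80) and 1.52-fold (1.39 to 1.66) lower. Both share sequence with other annotated genes, over 50.1% and 48.8% of their 50-base stretches. Hspa4l, an HSP110 relative, was at 30.2 and 18.5 CPM in control and 42.8 and 40.0 in OGT-KO, so the 7 day library was lower beyond counting error in control alone (1.63-fold, 1.43 to 1.85, against 1.07-fold, 0.976 to 1.17).

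None of the other members of the list was called in recovery. Hspa8 was at 1134 and 656 CPM in control and 1049.9 and 718 in OGT-KO, a recovery difference of -0.79 and -0.55, with 67.3% of its 50-base stretches shared with other genes. Hsp90ab1 was at 1304 and 824 CPM in control and 1455 and 1224 in OGT-KO, at -0.66 and -0.25. Dnaja1, a cytosolic J-domain protein, was at 233 and 146 CPM in control and 154 and 129 in OGT-KO, at -0.67 and -0.26. The chaperonin pair had Hspd1 at -0.22 and 0.03 and Hspe1 at -0.36 and -0.25.

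**Figure D2:**
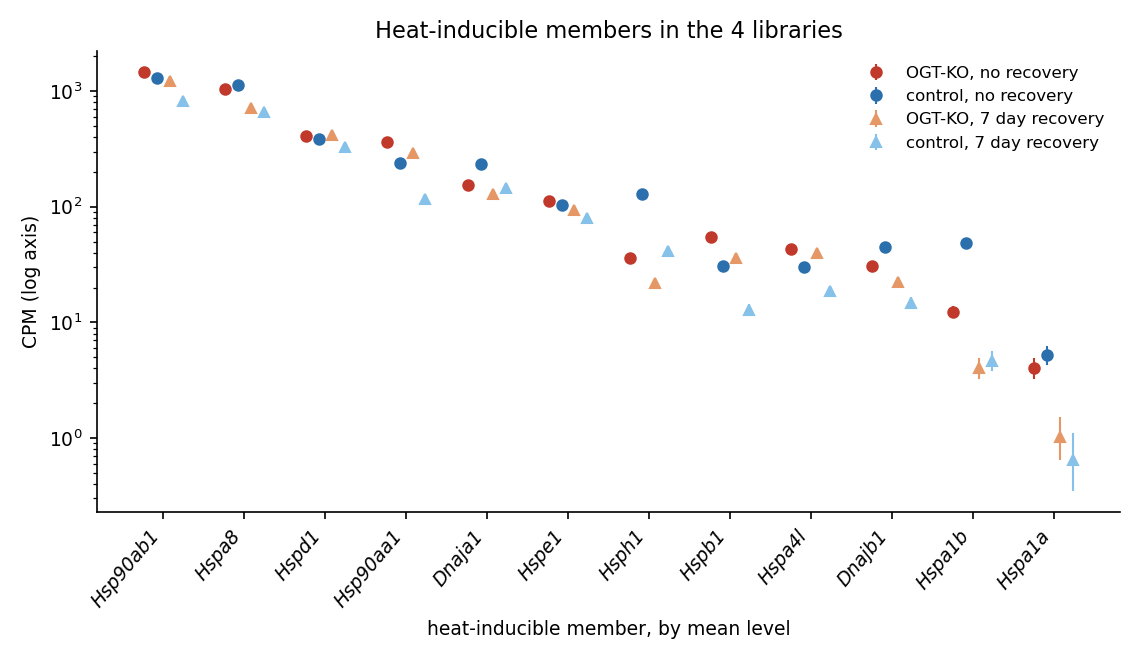
CPM (log axis) of the 12 heat-inducible members in each library, ordered by mean level, with 95% exact intervals of counting error where larger than the point. Circles are no recovery and triangles 7 day recovery, in reds for OGT-KO and blues for control. Hspa1b and Hsph1 stand apart in control with no recovery, at 48.2 and 128 CPM.

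In counts, 5 of the 47 compared members were called lower after 7 days in control (Hspa1b, Hsph1, Dnajb1, Hspb1 and Hsp90aa1), beside 0.96% of the 8963 compared genes, and 0 were called higher, beside 0.245%. All 5 are on the heat-inducible list, and none of the 36 compared members outside it was called. Since the list was set with earlier results of these data known, each split by it here is a description only. Hspb8, outside the list though its promoter held 1 pair, was at 0.26 in control and -0.66 in OGT-KO. In OGT-KO, 1 member (Hspa1b) was called lower, beside 0.435% of genes, and 0 higher, beside 1.04%. Hspa1b passed the filter through the library labelled control with no recovery, being under 10 CPM in both 7 day libraries, so a library in which it was high decided that it was compared. The median recovery difference of the 11 compared heat-inducible members was -0.79 in control (range -3.12 to -0.22) and -0.30 in OGT-KO (-1.39 to 0.03). For the other 36 it was -0.03 and -0.09, and for all compared genes -0.05 and -0.03. All 12 heat-inducible members, Hspa1a included, had a larger recovery difference in control than in OGT-KO, against 17 of the 36 others and 4042 of the 8963 compared genes. That count was the same under scaling by median ratio and by upper quartile, which moved the median recovery difference of all genes by at most 0.07. Under either scaling Hsp90aa1 fell just short of 2-fold in control (-0.97 and -0.96) and the other 4 calls remained.

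Outside the list, Dnajb4, a J-domain protein also known as a heat-responsive one, was the lowest of the compared members in recovery, at 38.1 and 19.7 CPM in control and 59.2 and 35.4 in OGT-KO (-0.92 and -0.73). Hspb6 (HSP20) was higher after 7 days in OGT-KO, at 9.36 and 17.3 CPM, and moved little in control, at 18.1 and 20.2. Dnajb4 and Hspb6, like Dnajb11, Dnajc22 and Hspa13, were picked out after their values were seen. The 8 mitochondrial members had a median of -0.02 in control and -0.01 in OGT-KO and a range of -0.36 to 0.21 over both, with 0 called. The 6 members listed for the endoplasmic reticulum had medians of -0.34 and 0.05, with 0 called. In CPM, Hsp90b1 made up most of that difference, at 969 and 663 CPM in control and 636 and 692 in OGT-KO.

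**Figure D3:**
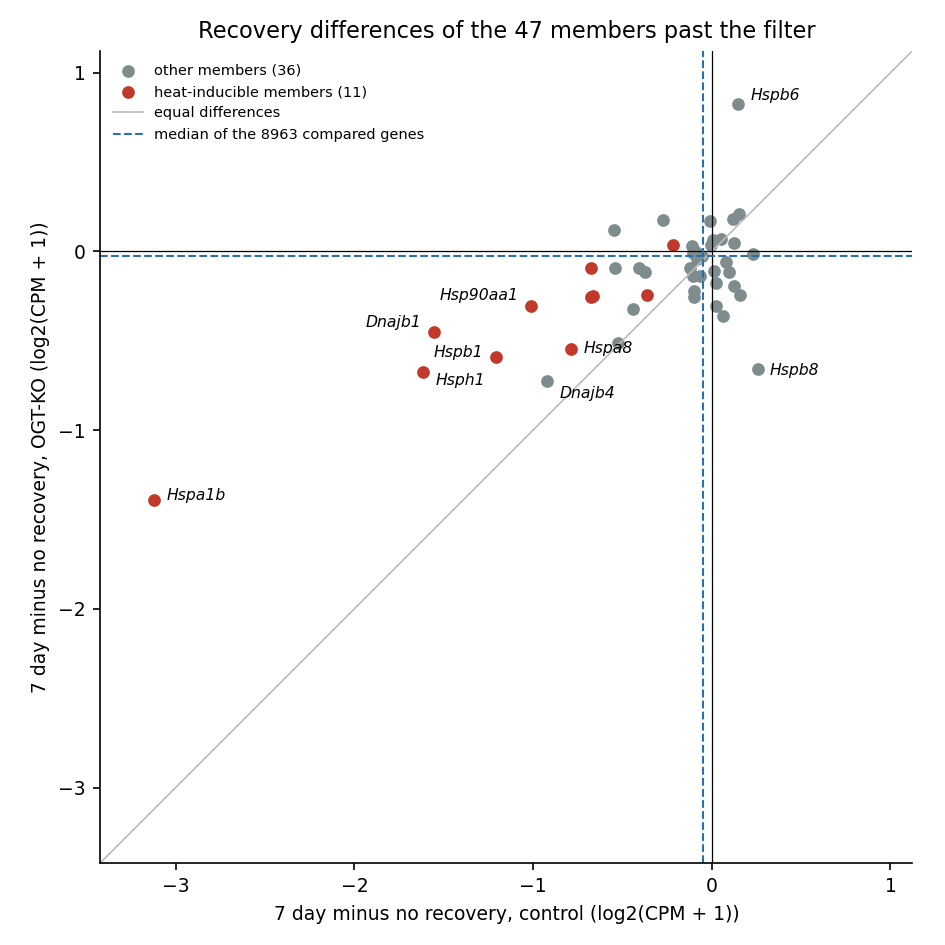
Recovery difference (7 day minus no recovery, log2(CPM + 1)) of the 47 compared members in control (horizontal) and OGT-KO (vertical), with heat-inducible members in red, dashed lines at the medians of the compared genes and a grey line of equal differences. All 11 red points lie to the left of 0 and above the grey line, and Hspa1b is farthest, at -3.12 and -1.39.

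Macrophage markers were lower after recovery in control and, by less, in OGT-KO. All 6 compared macrophage and Kupffer cell markers were lower after 7 days, by -1.48 to -1.20 in control and -0.88 to -0.25 in OGT-KO, and the sum of the 7 listed went from 241 to 89.4 CPM and from 864 to 572. The 6 endothelial markers differed by -0.80 to -0.25 in control, with sums of 224 and 156 CPM, and by -0.66 to -0.29 in OGT-KO, with sums of 360.2 and 270.4. The 7 stellate and myofibroblast markers were at -0.65 to -0.17 in control and -0.59 to 0.48 in OGT-KO. The 8 hepatocyte markers had a median of 0.06 in control (range -0.25 to 0.32). None of the listed markers in the table was at 0. Among 8 immediate early genes, which also rise when tissue is handled, Fosb went from 4.52 CPM to 0 reads in control, Atf3 from 2.96 to 0.801 and Jun from 31.2 to 20.8, while the other compared ones were at -0.50 to 0.03. The sum of the 8 went from 174 to 138 CPM in control and from 403 to 319 in OGT-KO. In log2 that was -0.34 under either label, and with no recovery the sum was 2.31-fold higher in OGT-KO. Their part in the chaperone values was not tested.

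Between genotypes, the calls were of single genes. Those higher with no recovery were all in the DNAJC family, which has 19 of the 47 compared members, and the other calls came from several families. With no recovery the library labelled OGT-KO had less Hspa1b and Hsph1 and more of 4 DNAJC genes: Dnajc9, a J-domain protein that handles histones, Dnajc10 (ERdj5), a disulfide reductase of the endoplasmic reticulum, Dnajc2 (zuotin-related factor), which works on ribosomes, and Dnajc8, found with splicing factors. After 7 days Dnajc9 and Dnajc10 were again higher, now together with Hspb1, Hsp90aa1 and Hspa4l.

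The scale of genotype differences depends on how the libraries are set level. At the deposited equal totals all compared genes had a median difference of 0.51 at no recovery and 0.48 at 7 days, and median-ratio scaling shifts it by -0.70 and -0.66. Members are therefore given also relative to the median gene. With no recovery 4 of 47 members were called higher, beside 24.4% of all compared genes, and 2 lower, beside 5.69%. After 7 days 5 were called higher, beside 22.9%, and 0 lower, beside 4.27%. Members called higher were thus a smaller share than that of all genes at both times, and those called lower with no recovery were near the share of all genes. The members' median was 0.28 and 0.37, or -0.23 and -0.11 relative to the median of all genes. Under median-ratio scaling it was -0.44 and -0.30, beside -0.19 and -0.18 for all compared genes. With no recovery 1 member was then called higher and 9 lower, and after 7 days 1 and 3. The 9 were Hspa1b, Hsph1, Hspb6, Dnajc3, Hsp90b1, Dnaja1, Dnajb1, Dnajb11 and Hspa13, and the 3 were Hsph1, Hspb8 and Dnajc3. Calls under upper-quartile scaling were 2 higher and 6 lower, then 2 and 2. Shares of all compared genes called were not counted under these other scalings, so none stands beside those calls. The direction of the members' median thus turns with the scaling.

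Dnajc9 was at 21.0 CPM (19.2 to 23.0) in OGT-KO and 4.89 (4.0 to 5.9) in control with no recovery, and at 22.2 (20.3 to 24.2) and 5.11 (4.16 to 6.2) after 7 days. The ratio was 4.30 (3.47 to 5.37) and 4.34 (3.50 to 5.42), and the counting intervals of the 2 libraries compared did not overlap at either time. It passed the filter through the OGT-KO libraries, being under 10 CPM in both controls. Dnajc10 was at 73.7 and 23.9 CPM, then 75.5 and 23.8, with ratios of 3.08 (2.79 to 3.41) and 3.17 (2.86 to 3.51). Neither gene differed between the times in either genotype beyond counting error. Dnajc9 was called under all scalings at both times (lowest 1.25 with no recovery and 1.31 after 7 days), whereas Dnajc10 fell short under median-ratio scaling, at 0.88 and 0.96.

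Dnajc2 was at 43.9 and 18.9 CPM with no recovery (OGT-KO and then control) and at 34.0 and 19.8 after 7 days, a genotype difference of 1.17 and 0.75. Dnajc8 was at 47.6 and 21.3, then 47.2 and 25.2 CPM, a difference of 1.12 and 0.88. Less the median of all genes these came to 0.66 and 0.27 for Dnajc2 and 0.62 and 0.40 for Dnajc8. The DNAJC family as a whole had a median of 0.55 and 0.38 over its 19 compared members, beside 0.51 and 0.48 for all genes, and of -0.16 and -0.25 under median-ratio scaling.

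Among inducible members, Hspa1b was 3.95-fold lower in OGT-KO with no recovery (3.46 to 4.53) and 1.15-fold lower after 7 days (0.856 to 1.56), the latter within counting error. Hsph1 was lower at both times, 3.59-fold (3.32 to 3.89) and 1.87-fold (1.68 to 2.10). In each scaling both genes were called lower with no recovery. Hspb1 was 1.79-fold higher (1.63 to 1.97) and 2.85-fold higher (2.47 to 3.29), Hsp90aa1 1.51-fold (1.46 to 1.57) and 2.48-fold (2.36 to 2.60), and Hspa4l 1.42-fold (1.28 to 1.57) and 2.16-fold (1.91 to 2.44). Relative to the median gene these 3 were at 0.31, 0.09 and -0.02 with no recovery and 0.96, 0.82 and 0.59 after 7 days, and none was called after 7 days under median-ratio scaling (0.79, 0.62 and 0.41). Hsp90aa1 and Hspa4l turned to -0.12 and -0.21 with no recovery under that scaling.

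The genotype difference itself was larger after 7 days than with no recovery by at least 2-fold for 2 members, Hspa1b (1.73) and Dnajb1 (1.10), beside 2.09% of all compared genes. It was smaller by that much for 0 members, beside 0.647%. Every compared heat-inducible member was on the positive side of this difference, from 0.12 to 1.73 with a median of 0.58, and so under the other scalings, whereas the other 36 had a median of 0.03. These values use the same 4 libraries as the recovery differences and are the same fact seen from the other side.

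**Figure D4:**
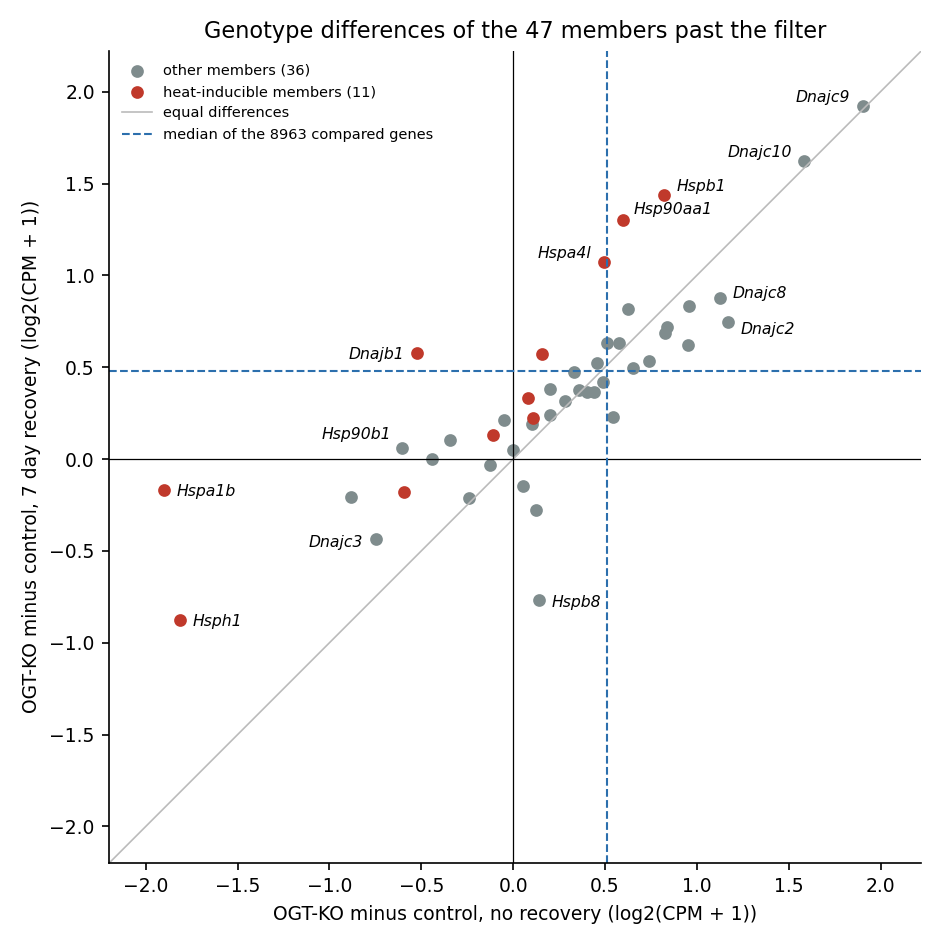
Genotype difference (OGT-KO minus control, log2(CPM + 1)) of the 47 compared members with no recovery (horizontal) and 7 day recovery (vertical), with heat-inducible members in red and dashed lines at the medians of the compared genes, 0.51 and 0.48. Dnajc9 and Dnajc10 lie high on the grey line of equal differences, all red points lie above it, and Hspa1b and Hsph1 are at the far left at -1.90 and -1.82. Median-ratio scaling moves all points by about -0.70 and -0.66, so signs near 0 depend on the scaling.

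Of the 6 members listed for the endoplasmic reticulum, all but Dnajc10 and Dnajc1 were lower in OGT-KO with no recovery at the deposited scaling. The list was not meant to hold every member of that compartment. Hsp90b1 was at 636 CPM in OGT-KO and 969 in control, and Dnajc3, a co-chaperone known to restrain the kinase PERK, was at 171 and 287. Dnajb11 stood at 121 and 165 CPM and Hspa13 at 28.5 and 36.4. After 7 days Hsp90b1 was at 692 and 663 and Dnajc3 at 160 and 216 CPM. The list of 6 had a median of -0.39 and 0.08, or -1.10 and -0.59 under median-ratio scaling. At the deposited scaling 0 of 6 were called lower and 1 higher at both times. Under median-ratio scaling 4 were called lower with no recovery and 1 after 7 days, with no share of all genes counted there. Hspa5, the HSP70 of the same compartment and left out by the rule, was at 1128 and 1286, then 801 and 801 CPM. Hspb8 went the other way with time, at 211 and 191 CPM with no recovery and 133 and 228 after 7 days, 1.71-fold lower in OGT-KO then (1.63 to 1.79).

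At the deposited scaling Hspa9, Hspa4 and Hspd1 differed by less than 1.5-fold between genotypes. Hspa9 was at 573 and 471, then 564 and 453 CPM, and Hspa4, the main HSP110, at 196 and 139, then 178 and 133. Hspd1 was at 408 and 385, then 417 and 332 CPM. Mitochondrial members as a list had a median of 0.11 and 0.23, or -0.60 and -0.45 under median-ratio scaling. Dnaja2 was at 196 and 101, then 158 and 103 CPM, the largest difference of the 4 DNAJA genes with no recovery at the deposited scaling, while under median-ratio scaling it was 0.24 and -0.06 and that of Dnaja1 was -1.31 and -0.86. Hspb6 was at 9.36 and 18.1, then 17.3 and 20.2.

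Among low members, 4 were named because theirs was the largest genotype difference in a family in size, averaged over both times, and all 4 were higher in OGT-KO. Hspbap1, which binds Hspb1, was at 16.9 CPM (15.3 to 18.7) and 2.12 (1.54 to 2.83), then 11.8 (10.4 to 13.3) and 3.10 (2.38 to 3.98), a ratio of 7.99 (5.86 to 11.1) and 3.80 (2.87 to 5.09). Hspa2, an HSP70 best known from testis, was at 9.58 and 2.26, then 7.75 and 1.95 CPM. Hspb2 had 42 and 1 reads, then 63 and 2, a ratio of 39.0 (6.64 to 1578) and 27.9 (7.40 to 235). Dnajb13 had 38 and 8 reads, then 29 and 1. Some low members went the other way, among them Dnajc12 at 4.24 and 7.57, then 3.94 and 14.7 CPM. Dnajc28 was at 3.72 and 10.3, then 7.36 and 9.41 CPM. Dnajc12 and Dnajc28 were picked out after their values were seen. Over all 64 members, at the deposited scaling, 46 were above 0 and 18 below with no recovery, and 51 and 13 after 7 days.

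Stellate cell and bile duct markers went with the genotype. All 7 stellate and myofibroblast markers were called higher in OGT-KO at both times, with sums of 2442 and 115, then 3072 and 86.6 CPM, as were all 5 bile duct markers, at 1148 and 53.7, then 1457 and 69.6. The 7 macrophage markers summed to 864 and 241, then 572 and 89.4 CPM, and the 8 hepatocyte markers to 55083 and 82314, then 67605 and 91520 CPM. Their part in the differences of Dnajc9, Dnajc10, Hspbap1, Hspb1 and the other members was not tested.

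Genes that work with the members were taken from lists of 3 heat shock factors, 10 nucleotide exchange factors, 15 co-chaperones of HSP90 and HSP70, 14 subunits of the TRiC chaperonin and prefoldin, and 5 other chaperones. Of 43 partners compared, 1 was called lower in recovery in control (2.33%, beside 0.96% of all compared genes) and 0 in OGT-KO (beside 0.435%). In either, 0 were called higher, beside 0.245% and 1.04%. The 1 called lower was Bag3, an inducible exchange factor that works with Hspb8, at 105 and 46.4 CPM in control and 140 and 87.5 in OGT-KO (-1.17 and -0.67). Stip1 (HOP), which links HSP70 to HSP90, was at 128 and 78.4 CPM in control and 81.6 and 84.5 in OGT-KO. Fkbp4, an HSP90 immunophilin, was at 243 and 146 and at 160 and 188 in the same order. Hyou1, the exchange factor of the endoplasmic reticulum, was at 508 and 271 CPM in control and 188 and 169 in OGT-KO. These were picked after their values were seen. Over all 43 partners the difference between the genotype differences went both ways, above 0 for 24 and below it for 19, with a median of 0.02 beside 0.03 for all compared genes.

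Between genotypes, 7 partners were called higher and 2 lower with no recovery, beside 24.4% and 5.69% of all compared genes, and 5 and 0 after 7 days, beside 22.9% and 4.27%. The medians of the 43 were 0.44 and 0.41. Under median-ratio scaling the calls turned to 2 higher and 7 lower, then 2 and 5, with no share of all genes counted there. The medians turned to -0.26 at both times, beside -0.19 and -0.18 for all compared genes. Serpinh1, the collagen chaperone of the endoplasmic reticulum, had the largest difference, at 151 and 21.7, then 199 and 11.9 CPM, followed by Cryab at 22.3 and 4.05, then 26.9 and 2.65. Prefoldin subunits Pfdn1 and Vbp1 and the myosin co-chaperone Unc45a were called higher at both times, with differences of 1.25 to 1.42 at first and of 1.07 to 1.42 later, and fell short under median-ratio scaling. Hyou1 and Clpb, a mitochondrial disaggregase, were the 2 called lower, at -1.43 and -1.61. The heat shock factor genes Hsf1 and Hsf2 differed by 0.70 and 0.33 with no recovery and by 0.40 and 0.20 at 7 days, not called in either.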

How the data were processed

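Per the labels, RNA of mouse livers was isolated with TRIzol, pooled equally from 3 mice per condition and made into Tecan universal plus mRNA libraries. The authors deposited CPM for 13903 genes in 4 columns. The submitters' processing notes name STAR, DESeq2 and the build GRCm39, without versions or roles. Each deposited column sums to 1000000 CPM, and 100% of values were whole multiples of 1 read (tolerance 0.01 reads), so reads were recovered and gave exact Clopper-Pearson intervals of CPM and exact conditional intervals of ratios. A count test on those reads compares libraries, not conditions, and enters below only as an alternative.

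Genes averaging 10 CPM or more were compared on log2(CPM + 1) and called at 2-fold. Named with values were members called in any comparison, the heat-inducible list, the 10 of highest mean and the member of largest genotype difference in each family. Members and lists were chosen with earlier results of these data known. Exon lengths and shared 50-base stretches came from GENCODE vM21 and promoters from RefSeq, both GRCm38, matched by identifier or symbol. Alternatives were pseudocounts of 0.1 and 10, no filter, a mean of at least 50, 2 other scalings, 1.5-fold, and 2-fold with an adjusted exact binomial test. Steps were tested on simulated data. Python 3.11.15 with numpy 2.4.6, pandas 2.3.3, scipy 1.17.1 and matplotlib 3.10.9 was used.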

Additional observations from a re-analysis of the deposited data

Results flagged for a closer look

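Dnajb1, Hsp90b1 and Hspb8 differed in opposite directions under the same contrast in the 2 times or genotypes, and the difference was not tested, since each condition is 1 library. The genotype difference of Dnajb1 was -0.52 before recovery and 0.58 at 7 days, and under median-ratio scaling it was -1.22 and -0.07. That of Hsp90b1 was -0.61 and 0.061, the later value being -0.62 under median-ratio scaling. Hspb8 had a genotype difference of 0.14 and -0.77, and its recovery difference was 0.26 in control and -0.66 in OGT-KO. With median-ratio scaling the genotype difference of Hspb8 was -0.57 and -1.45.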

How the results depend on the processing

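Each condition is 1 library, so leaving out a library was not possible and no paired analysis was possible because no replicates exist. Where a pair of values is printed, the first is for no recovery and the other for 7 days. Shares of all compared genes were counted for the main setting alone, so the counts under the other settings have none beside them. Members called higher between genotypes numbered 4 and 5 in the main setting. They became 2 with a pseudocount of 10 (no recovery), 10 and 12 without the filter, 0 and 1 at a mean of at least 50, 1 and 1 with median-ratio scaling, 2 and 2 with upper-quartile scaling, and 13 and 14 at 1.5-fold. Members called lower numbered 2 and 0, and became 1 at a mean of at least 50 (no recovery), 1 without the filter (7 days), 9 and 3 with median-ratio scaling, 6 and 2 with upper-quartile scaling, and 6 and 2 at 1.5-fold. The members' median turned from 0.28 and 0.37 to -0.44 and -0.30 with median-ratio scaling and to -0.20 and -0.10 with upper-quartile scaling, by the shift of all genes, and was 0.42 without the filter (no recovery). In recovery in control the 5 called lower became 3 with a pseudocount of 10, 2 at a mean of at least 50, 10 at 1.5-fold and 0 outside the heat-inducible list, and the median of -0.10 was -0.79 over that list alone. In recovery in OGT-KO the 1 called lower became 0 with a pseudocount of 10, at a mean of at least 50 and outside that list, 2 without the filter and 5 at 1.5-fold, where 1 was called higher, and the median of -0.11 was -0.30 over the list. The 2 members whose genotype difference was larger after 7 days became 1 with a pseudocount of 10, 0 at a mean of at least 50 and 7 at 1.5-fold, where 1 was smaller. Splitting by that list was chosen after the data were seen. Of 560 recomputed values of named genes, 156 moved beyond counting error and 0 called values changed sign. That 0 is no test of the signs, since a call needs 2-fold and median-ratio scaling shifts the genotype differences by only -0.70 and -0.66. Of the 47 compared members, 23 and 25 changed the sign of their genotype difference with median-ratio scaling. With upper-quartile scaling 14 and 18 did. In recovery, 2 changed sign in control and 6 in OGT-KO with median-ratio scaling. Depth limits the low members most: the upper bound of a compared member lay up to 22.8% above its value.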
